A study of Mus musculus with 40 samples.

Results

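The 9 genes described here carry out antigen presentation by MHC class I in the mouse eye: B2m, H2-K1, H2-D1, Tap1, Tap2, Tapbp, Nlrc5, Psmb8 and Psmb9. They were chosen by name for their place in the pathway, with earlier results of these data known, and all 9 were found among the 54307 genes of the deposited table and passed the filter on low values in both tissues. RNA was sequenced from the choroid and the retina of 20 mice whose eyes had received 6 laser burns each, the lesion model of choroidal neovascularization, and the tissues were taken 3 days later. There were 8 groups of 5 libraries, given by tissue (choroid or retina), genotype (control or Tgfbr2ΔEC) and diet (– PLX or + PLX). All mice carried floxed Tgfbr2 alleles (Tgfbr2 fl/fl) on a C57BL/6J background and received tamoxifen eye drops at 6 to 7 weeks of age. The Tgfbr2ΔEC mice also carried Cdh5-CreERT2, a tamoxifen-dependent Cre driven by the promoter of an endothelial cadherin, and control mice were Cre-negative littermates. The + PLX mice ate PLX5622, an inhibitor of the CSF1 receptor on which mononuclear phagocytes (MP: macrophages, microglia and monocytes) depend, from the first tamoxifen dose to the end, and the – PLX mice ate control food. Mice 1 to 5 were control – PLX, mice 6 to 10 Tgfbr2ΔEC – PLX, mice 11 to 15 control + PLX and mice 16 to 20 Tgfbr2ΔEC + PLX, and values below stand in the order of the mice. The Cre is directed to endothelial cells, whereas the RNA came from unsorted tissue of laser-treated eyes, for choroid from its central, lesion-bearing area alone.

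An MHC class I molecule is a heavy chain (H2-K1 or H2-D1 here) joined to the invariant light chain encoded by B2m, and it shows short peptides from inside the cell to CD8 T cells. The peptides are cut by the proteasome, whose immune form contains the catalytic subunits Psmb8 and Psmb9, are pumped into the endoplasmic reticulum by the Tap1 and Tap2 transporter, and are fitted onto the heavy chain with the help of tapasin (Tapbp). Nlrc5 is a transactivator of the heavy chains, B2m, Tap1 and Psmb9, interferons raise most genes of the pathway, and nearly every nucleated cell expresses the pathway, at low level in neurons and at high level in immune cells and endothelium.

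In the GRCm39 annotation 7 members lie on chromosome 17. Tapbp (17:34134873-34148267), H2-K1 (17:34214987-34219321), Psmb9 (17:34400960-34406738), Tap1 (17:34405996-34416199), Psmb8 (17:34416690-34420428) and Tap2 (17:34422501-34435829) stand within 301.0 kb, and H2-D1 (17:35481691-35486475) follows 1.05 Mb further on. B2m (2:121977957-121983594) and Nlrc5 (8:95160984-95253900) lie elsewhere. Psmb9 and Tap1 overlap by 743 bases on opposite strands, and H2-K1 and H2-D1 have close relatives among the other class I heavy chains. How the counting treated strand and shared reads is not given in the sources used here, so the split of reads between such neighbours is uncertain.

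The promoters of the light chain, the heavy chains and Tap1 are shown in part because these genes share control sequences. The RefSeq promoter table (GRCm38.p6, 250 bases before to 50 bases after each start) held 7 of the 9 members, and Tap2 and Nlrc5 had no entry in it. Each stretch below is 30 bases, is written 5′ to 3′ on the strand of the gene and occurs once on its GRCm39 chromosome, and capitals mark matches to the motifs named. The first set holds GGGGATTCC, a kappa B site, in H2-K1 and H2-D1. In these genes and in B2m it holds TTTCNNTT, the core of an interferon response element, which in B2m is read on the other strand. The stretches lie at chr17:34219403-34219432 (- strand) for H2-K1, chr17:35481899-35481928 (+ strand) for H2-D1 and chr2:121978031-121978060 (+ strand) for B2m.
H2-K1: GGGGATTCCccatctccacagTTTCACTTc
H2-D1: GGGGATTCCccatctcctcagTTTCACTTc
B2m: AACTGAAAatgggaaagtccctttgtaacc
The second set holds TGACG, the core of the X2 box, and, in H2-K1, H2-D1 and B2m, ATTGG, which is CCAAT (the Y box) on the other strand, both parts of the element through which Nlrc5 acts with its partner factors. The Tap1 stretch holds TGACG alone. These lie at chr17:34219333-34219362 (- strand) for H2-K1, chr17:35481969-35481998 (+ strand) for H2-D1, chr2:121978090-121978119 (+ strand) for B2m and chr17:34406444-34406473 (+ strand) for Tap1.
H2-K1: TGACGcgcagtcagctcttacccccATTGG
H2-D1: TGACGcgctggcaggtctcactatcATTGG
B2m: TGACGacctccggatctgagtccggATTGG
Tap1: TGACGacagagggtcctgccctcaatctgg
H2-K1 and H2-D1 were identical at 29 of 30 bases in the first set and at 23 of 30 in the second. Among 32851 promoters of 300 bases, searched on both strands, 0.25% held GGGGATTCC, 23.9% TTTCNNTT, 20.8% TGACG and 37.4% CCAAT. Of the 7 members with a promoter these motifs were found in 2, 3, 5 and 6. Only GGGGATTCC was rare among promoters in general, and of the 4 it was the one found in the heavy chains alone. It is 1 exact sequence, and other forms of a kappa B site were not searched for, in B2m or elsewhere. A match describes letters and is not evidence that a factor binds. Of the 7 stretches, 6 also overlap exons of transcripts that GENCODE annotates in GRCm39 (of any gene, on either strand), the exception being the first H2-K1 stretch.

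Choroid libraries summed to 24718469 to 25956180 normalized counts and retina libraries to 22256892 to 24507335, and the steps between low values put the depth at about 21583339 to 28331348 reads for the choroids and 20893972 to 30421581 for the retinas. Tgfbr2 itself was at 8729 to 11304 in Tgfbr2ΔEC – PLX and 9836 to 10849 in control – PLX choroids (-0.05 ± 0.09 on the log2 scale, adjusted p = 0.924), and no genotype comparison of it passed in either tissue, so the bulk values do not check the endothelial deletion. Csf1r, the target of PLX, fell by 1.03 ± 0.07 (adjusted p = 1.29e-09) in choroid and by 3.29 ± 0.25 (1.68e-08) in retina. Rpe65 of the retinal pigment epithelium was at 14927 to 43886 in choroid and 131 to 1168 in retina. Retina RNA was also present in choroid libraries: the sum of 10 photoreceptor markers was 2750.1 to 25671 in control – PLX, 45349 to 131517 in Tgfbr2ΔEC – PLX, 2321 to 126724 in control + PLX and 6235 to 20048 in Tgfbr2ΔEC + PLX, with mice 6, 9 and 15 above 100000. The choroid comparisons were therefore also made without these 3 choroids. In unsorted tissue, fewer cells of a type and less RNA per cell cannot be told apart.

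All 9 genes were higher in choroid than in retina. In control – PLX mice the log2 difference ran from 1.43 for Tapbp (2.69-fold) to 4.12 for B2m (17.4-fold), and limma called all 9 (Benjamini-Hochberg adjusted p of 0.05 or less, the threshold used throughout), where 34.1% of the 24317 genes tested were called higher in choroid. In control + PLX mice it ran from 1.49 for Nlrc5 to 4.62 for B2m, again 9 of 9, against 33.7% of all genes. For B2m the 5 control – PLX choroids held 21081, 22444, 21687, 22708 and 22466 normalized counts and the retinas of the same mice 1382, 1308, 1166, 871 and 1776. The lowest choroid thus stood above the highest retina by more than an order of magnitude. The median difference of all genes between the tissues was -0.018 to -0.008, and -0.228 to -0.125 under other scalings, which left the 9 calls in place.

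Divided by exon length, the levels also fell in a different order in each tissue. Per kilobase of exon, control – PLX choroids held 10483 ± 321 normalized counts of B2m (SD, n = 5), 4140 ± 541 of H2-D1, 2486 ± 335 of H2-K1 and 1095 ± 50.4 of Tapbp, and no mouse's value for one of these genes reached into the range of the next. Psmb8 (247 ± 23.1), Tap2 (235 ± 62.3), Tap1 (164 ± 52.5), Psmb9 (121 ± 49.5) and Nlrc5 (58.7 ± 23.1) followed, and each overlapped its neighbour. In control – PLX retinas the order began with H2-D1 (746 ± 212), B2m (618 ± 157), Tapbp (413 ± 86.3) and H2-K1 (407 ± 154), whose ranges overlapped. Tap2 (54.2 ± 15.7), Tap1 (43.0 ± 16.7), Psmb8 (42.0 ± 14.9), Psmb9 (16.3 ± 6.74) and Nlrc5 (15.7 ± 5.97) stood below H2-K1, with Tap2 outside its range. The light chain thus exceeded each heavy chain per kilobase in every control – PLX choroid, while in the retina B2m and H2-D1 overlapped. Lengths count every annotated exon of a gene, so a gene with rarely used exons reads low on this scale.

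In the choroid, depletion of MP with PLX was accompanied by less RNA of most class I genes. Taking both genotypes together, 6 of the 9 members were called lower (H2-K1, H2-D1, B2m, Tap1, Psmb8 and Nlrc5), against 5.06% of the 23619 genes tested, and 8 of 9 differences were below 0. The falls ran from 17.9% for B2m to 48% for Nlrc5, and the median over the members was -0.55 on the log2 scale, while over all genes it was 0.000541. Tap2 (0.07 ± 0.14 (adjusted p = 0.854)), Tapbp (-0.20 ± 0.10 (adjusted p = 0.275)) and Psmb9 (-0.58 ± 0.23 (adjusted p = 0.163)) did not pass. With a score of photoreceptor markers added as a covariate 6 were called, and without the 3 choroids richest in retina RNA 5 were, Tap1 then differing by -0.68, against -0.74 with all 20 choroids, at an adjusted p of 0.0541.

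**Figure D1:**
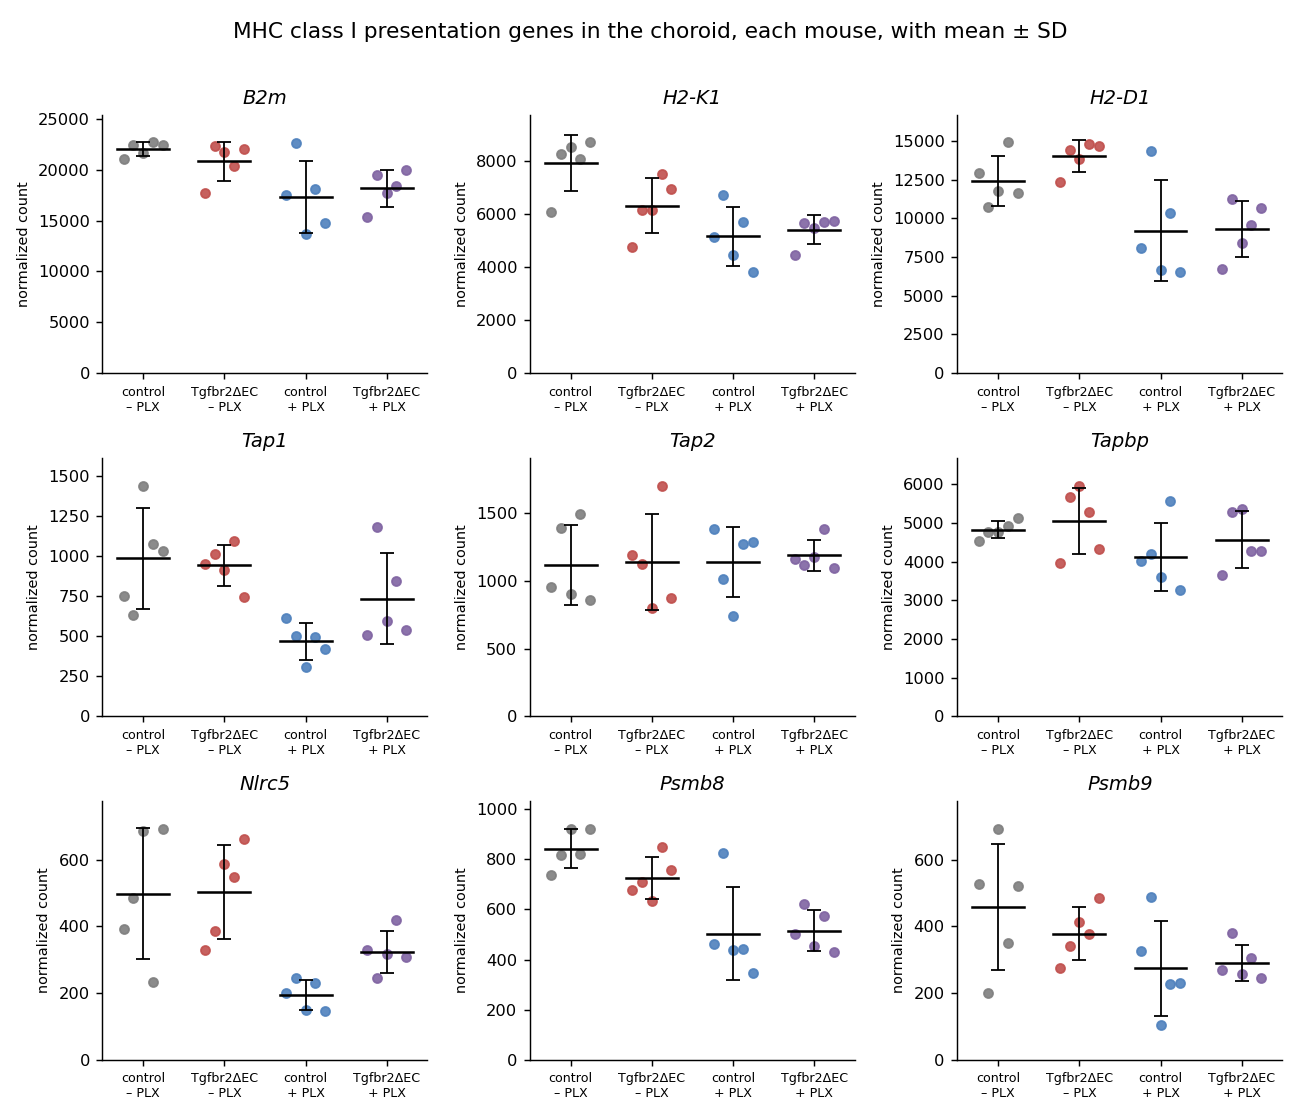
Normalized counts of the 9 genes in each of the 20 choroids, 1 panel per gene and 1 point per mouse, with the mean and SD of each group of 5. The + PLX points lie lower than the – PLX points for Tap1 in control mice and for H2-D1 and Psmb8 in Tgfbr2ΔEC mice without overlap, and the diets overlap throughout for Tap2.

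B2m, the light chain, stood in control – PLX choroids at 21081, 22444, 21687, 22708 and 22466 and in control + PLX choroids at 17504, 22652, 13681, 18106 and 14721. In Tgfbr2ΔEC choroids it was 17683, 22301, 21729, 20391 and 22012 without PLX and 15316, 19448, 17737, 18389 and 20018 with it. The control – PLX values were the tightest of any member in any group, and 4 of the 5 control + PLX values lay below them, while mouse 12 reached into their range. Over both genotypes B2m fell by 0.28 ± 0.08 on the log2 scale (adjusted p = 0.0307), a difference of 17.9%. This call is close to the threshold: it was lost when any 1 of mice 5, 7, 8, 13, 15, 16 or 18 was left out (the adjusted p then reaching 0.0634) and under upper-quartile scaling (0.101), and over all alternatives the adjusted p ran from 0.00189 to 0.101.

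Of the heavy chains, H2-K1 was at 6061, 8255, 8526, 8050.3 and 8693 in control – PLX and at 5117, 6706, 4443, 5686 and 3802 in control + PLX choroids. Its counts in Tgfbr2ΔEC choroids were 4768, 6135, 6155, 7511 and 6949 on control food and 4442, 5649.5, 5449, 5684 and 5744 on PLX. The diets overlapped in controls only through mice 1 and 12, and in Tgfbr2ΔEC choroids through mouse 6, the lowest of its group. H2-K1 fell by 0.43 ± 0.10 on the log2 scale (adjusted p = 0.0103) over both genotypes. H2-D1 was at 12943, 10713, 11770.4, 14908 and 11604 in control – PLX choroids, against 8096, 14350.4, 6666, 10352 and 6564 with PLX. In Tgfbr2ΔEC choroids H2-D1 was at 12316, 14438, 13851, 14808 and 14697 without and 6738, 11260.2, 8382, 9589 and 10649 with PLX. All 5 Tgfbr2ΔEC + PLX mice were below all 5 Tgfbr2ΔEC – PLX mice, whereas in controls mouse 12 stood among the – PLX values. H2-D1 fell by 0.55 ± 0.12 on the log2 scale (adjusted p = 0.00707).

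Of the transporter subunits Tap1 was called lower over both genotypes and Tap2 was not, and the 2 were not tested against each other. Tap1 was at 751, 633, 1441, 1074 and 1033 in control – PLX choroids and at 618, 505, 307, 494 and 418 with PLX. In Tgfbr2ΔEC mice Tap1 was at 949.9, 1011, 913, 1094 and 748 without and 508, 1185, 597, 846 and 541 with PLX. The control diets did not overlap, and among Tgfbr2ΔEC choroids mice 17 and 19 reached the – PLX range. Over both genotypes Tap1 fell by 0.74 ± 0.17 on the log2 scale (adjusted p = 0.0069), or 40%. Tap2 was at 955, 1389, 904, 1492 and 859 in control – PLX and 1380.3, 1014, 742, 1273 and 1288 in control + PLX choroids. The Tgfbr2ΔEC choroids held 1195, 1126, 801, 1704 and 874 counts of Tap2 without PLX and 1161, 1122, 1179.6, 1384 and 1098 with it. These ranges overlapped in both genotypes, and the 95% interval of the Tap2 difference, -0.23 to 0.36, does not contain the Tap1 difference.

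The ratio of Tap1 to Tap2 within a choroid, a measure chosen after the values were seen and given without a test, was 0.456 to 1.59 (median 0.786) in control – PLX and 0.325 to 0.498 (median 0.414) in control + PLX mice. It was 0.642 to 1.14 (median 0.856) in Tgfbr2ΔEC – PLX and 0.437 to 1.06 (median 0.506) in Tgfbr2ΔEC + PLX mice. Both diets overlapped in both genotypes. Tapbp, which encodes tapasin and bridges transporter and heavy chain, was at 4532, 4777, 4770.2, 4930.3 and 5134 in control – PLX and 4013, 4196, 3593, 5562 and 3269 in control + PLX choroids, with 4 mice below the – PLX range and mouse 14 above it. In Tgfbr2ΔEC choroids Tapbp was at 3978, 5678, 5969.8, 5298 and 4337 without and 3655, 5276, 5369, 4277 and 4271 with PLX, and the diets overlapped.

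Of the immunoproteasome subunits, Psmb8 stood at 736, 816, 922, 819.5 and 919.9 in control – PLX and at 463, 824.5, 437, 441 and 347 in control + PLX choroids. In Tgfbr2ΔEC choroids Psmb8 was at 678, 710.1, 633, 848 and 758 without PLX and 499.9, 623, 454, 572 and 429 with it. Mouse 12 was the single control + PLX choroid inside the – PLX range, and the Tgfbr2ΔEC diets did not overlap. Psmb8 fell by 0.65 ± 0.12 on the log2 scale (adjusted p = 0.000886), the lowest adjusted p of the 9. Psmb9 was at 526, 201, 692, 351 and 520.1 in control – PLX and at 325, 487, 103, 226 and 229 in control + PLX choroids. In Tgfbr2ΔEC choroids Psmb9 was at 275, 340.2, 414, 376 and 485 without and 269, 379, 256, 305 and 246 with PLX. Its spread among control mice was wide and the diets overlapped, and without mouse 12 the difference was -0.705 with an adjusted p of 0.0487.

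Nlrc5, the transactivator, had the lowest mean per kilobase in control – PLX choroids and the largest fall of the 9 over both genotypes. Control – PLX choroids held 394, 486, 687, 234 and 693 and control + PLX choroids 201, 244, 150.5, 231 and 146. Tgfbr2ΔEC – PLX choroids held 328, 387, 588, 549.6 and 663 and Tgfbr2ΔEC + PLX choroids 329, 245, 317, 419 and 309. Control diets overlapped only in that mouse 12 exceeded mouse 4, and among Tgfbr2ΔEC choroids mice 16 and 19 exceeded the lowest – PLX choroid. Over both genotypes Nlrc5 fell by 0.94 ± 0.18 on the log2 scale (adjusted p = 0.00185), or 48%. The calls of H2-K1, H2-D1, Tap1, Nlrc5 and Psmb8 held in all 20 fits that left out 1 mouse.

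The fall was also examined within each genotype. In control choroids 4 members were called lower, Nlrc5 (-1.28 ± 0.26 (adjusted p = 0.00445)), Tap1 (-1.05 ± 0.24 (adjusted p = 0.0108)), Psmb8 (-0.81 ± 0.17 (adjusted p = 0.00553)) and H2-K1 (-0.64 ± 0.14 (adjusted p = 0.0109)), against 3.15% of all genes. A fit of only the 10 control choroids called 2, Nlrc5 and Tap1, with H2-K1 and Psmb8 both at an adjusted p of 0.0538. Without mouse 12, B2m (adjusted p = 0.00399) and H2-D1 (0.0094) were called as well. In Tgfbr2ΔEC choroids limma called 0 of 9 against 3.5% of all genes. There 3 members had an unadjusted p under 0.05, as did 15.4% of all genes: H2-D1 (-0.61 ± 0.18 (adjusted p = 0.056)), Psmb8 (-0.50 ± 0.17 (adjusted p = 0.112)) and Nlrc5 (-0.61 ± 0.26 (adjusted p = 0.25)). H2-D1 was called there without mouse 12, 13, 15 or 17 (lowest adjusted p 0.0121), and Psmb8 without mouse 12 (0.0145). Mice 12, 13 and 15 are control mice, and without them the differences stayed at -0.609 for H2-D1 and -0.498 for Psmb8. Leaving them out changes only the spread estimated over all groups and the adjustment. A fit of only the 10 Tgfbr2ΔEC choroids called 2, H2-D1 (adjusted p = 0.0116) and Psmb8 (0.0317). Without the 3 choroids richest in retina RNA 4 members were called in controls and 0 in Tgfbr2ΔEC choroids, as with them. Tap1 was -0.42 ± 0.24 (adjusted p = 0.426) and H2-K1 -0.21 ± 0.14 (adjusted p = 0.541) in Tgfbr2ΔEC choroids. The difference of the diet effect between genotypes was tested directly: 0 of 9 members passed, as did 0.0% of all genes, and 0 of 9 had an unadjusted p under 0.05, against 6.57% of all genes. Without the 3 choroids richest in retina RNA 0 of 9 passed as well. For Nlrc5 that difference was 0.67 ± 0.37 (adjusted p = 0.833), for Tap1 0.63 ± 0.34 (adjusted p = 0.819) and for H2-K1 0.42 ± 0.20 (adjusted p = 0.761), so a call in controls and none in Tgfbr2ΔEC mice does not show that the genotypes differ.

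Counting members by whether the diets overlapped gave 1 in control choroids (Tap1), against 3.27% of all genes with every + PLX mouse below every – PLX mouse. In Tgfbr2ΔEC choroids it gave 2 (H2-D1 and Psmb8), against 5.16%.

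**Figure D2:**
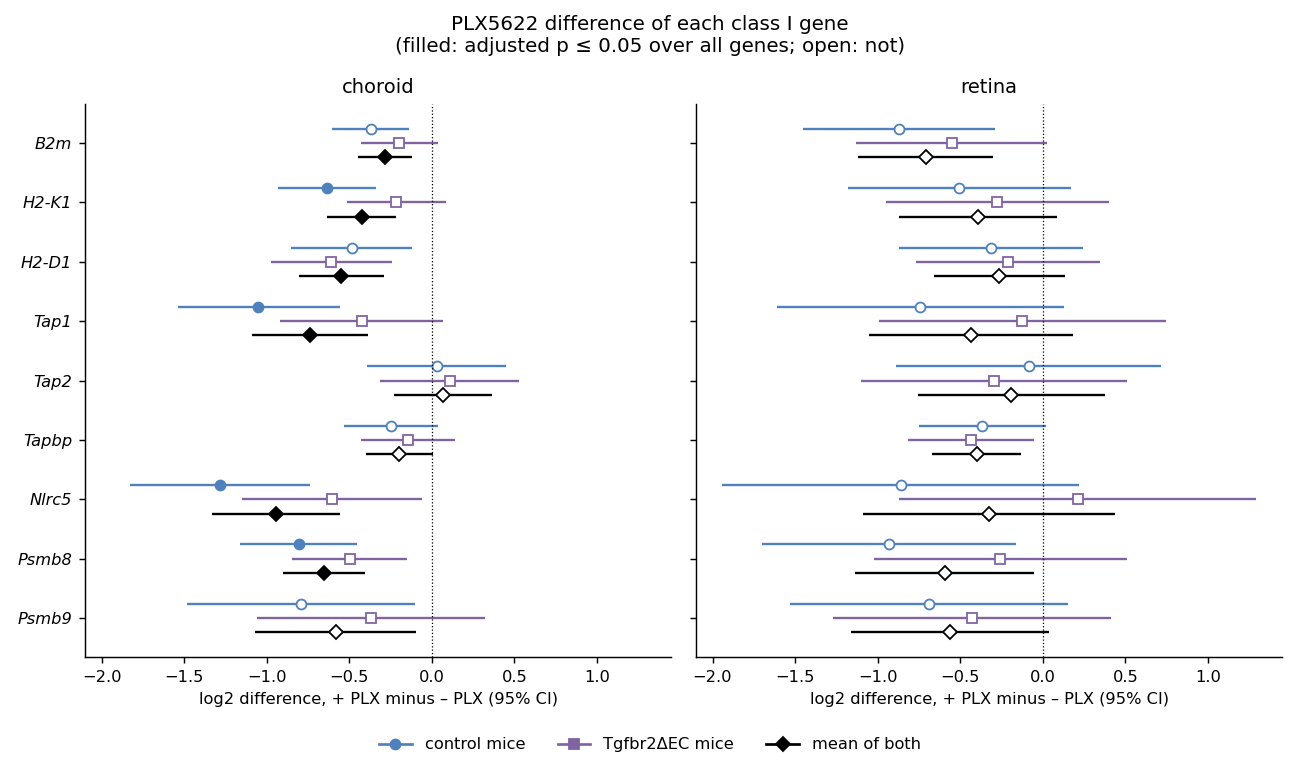
Log2 difference between + PLX and – PLX for each of the 9 genes in control mice, in Tgfbr2ΔEC mice and as the mean of both, with 95% intervals from limma, in choroid and in retina. For the mean of both in choroid, the intervals of the 6 called differences and of Psmb9, which was not called, lie below 0. Those of Tap2 and Tapbp span 0. All 9 retina points of the mean of both lie below 0 with wider intervals, while the Nlrc5 point of Tgfbr2ΔEC retinas lies above 0.

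Among relatives of the members in choroid, the other class I and class I-like heavy chains were called lower in 2 of 16, H2-M3 (-0.59 ± 0.12 (adjusted p = 0.00198)), which presents bacterial formyl peptides, and H2-T24 (-0.70 ± 0.20 (adjusted p = 0.034)). Hfe, a class I-like regulator of iron uptake, was at -0.34 ± 0.12 (adjusted p = 0.094), and the list ran from -0.70 to 1.14 with a median of -0.07. Of 6 other genes of loading and trimming, the chaperone Calr was called (-0.31 ± 0.08 (adjusted p = 0.0195)), and Canx (-0.19 ± 0.07 (adjusted p = 0.125)) and Pdia3 (-0.16 ± 0.07 (adjusted p = 0.182)) were not. All 6 had differences below 0, with a median of -0.15. Of the remaining immunoproteasome genes the third catalytic subunit Psmb10 was called (-0.42 ± 0.12 (adjusted p = 0.0448)), and the activator subunits Psme1 (-0.25 ± 0.11 (adjusted p = 0.199)) and Psme2 (-0.35 ± 0.21 (adjusted p = 0.394)) were not. The constitutive catalytic subunits that they replace were at -0.12 ± 0.06 (adjusted p = 0.316) for Psmb5, -0.14 ± 0.08 (adjusted p = 0.315) for Psmb6 and -0.03 ± 0.06 (adjusted p = 0.815) for Psmb7. Limma called 0 of the 14 genes of the constitutive core, all 14 differences were below 0, and Psma1 (-0.16 ± 0.06 (adjusted p = 0.0997)) had the lowest p.

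Of 24 regulators and receptors upstream of class I, 23 were tested and 5 were called lower: Irf8 (-1.17 ± 0.16 (adjusted p = 3.28e-05)), a transcription factor of myeloid cells, Ifngr1 (-0.35 ± 0.06 (adjusted p = 0.00047)), a chain of the interferon-gamma receptor, Ciita (-1.03 ± 0.19 (adjusted p = 0.00117)), the transactivator of MHC class II, and the type I interferon receptor chains Ifnar1 (-0.28 ± 0.06 (adjusted p = 0.004)) and Ifnar2 (-0.23 ± 0.06 (adjusted p = 0.0368)). Irf1 (-0.10 ± 0.13 (adjusted p = 0.748)), which carries interferon signals to the class I promoters, was not called. The list had a median of -0.10. Of 23 interferon-stimulated genes 3 were called lower, the RNA sensors Oas2 (-1.98 ± 0.22 (adjusted p = 1.6e-06)) and Oas1a (-1.63 ± 0.18 (adjusted p = 2.2e-06)) and the transcription factor Irf7 (-0.84 ± 0.24 (adjusted p = 0.0351)), with a list median of -0.20. MHC class II presentation, the pathway of professional antigen-presenting cells, was called lower in 7 of 10 genes with a median of -1.29, led by H2-DMa (-1.43 ± 0.13 (adjusted p = 7.32e-08)), H2-Aa (-1.44 ± 0.14 (adjusted p = 1.66e-07)) and Ctss (-1.17 ± 0.11 (adjusted p = 1.88e-07)). The class I members thus had a median between those of the interferon-stimulated and the class II list.

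Markers of several cell types moved with the diet in the same choroids. The summed MP markers were 48373 to 54604 in control – PLX and 46927 to 55164 in Tgfbr2ΔEC – PLX, and 12884 to 18480.4 and 12244 to 15544 with PLX, with no marker at 0. Of the 16 markers found, 15 were called lower, with a median of -2.48 and with Cx3cr1 (-3.47), C1qa (-3.40) and Mrc1 (-4.14) having the lowest p. Dendritic cell markers were called lower in 4 of 8 (Clec10a -3.15, Cd209a -1.49 and Flt3 -0.84 among them), and their sum was 1006 to 1941 and 1136 to 1452 without PLX and 708 to 1032 and 708 to 1065 with it. T and NK cell markers summed to 378 to 589 and 409 to 578 without PLX and to 178 to 355 and 163 to 313 with it, and 1 of 11 was called, Cd4 (-2.17). Of 6 neutrophil markers tested 2 were called lower (Csf3r -1.06 and Mmp8 -1.49), and of 5 B cell markers 1 (Cd79b -1.57). Endothelial markers, of cells that also carry class I, were called higher in 6 of 10, against 2.07% of all genes, led by Esam (0.35), Tie1 (0.27) and Erg (0.28). Fibroblast and mural markers were called higher in 2 of 7, Rgs5 (0.45) of pericytes and Dcn (0.45) of fibroblasts, and all 7 differences were above 0. Summed, they reached a median of 313809 without PLX and 383532 with it in control choroids (ranges 293058 to 324545 and 322678 to 392697), and of 336430 and 421399 in Tgfbr2ΔEC choroids (271529 to 384237 and 361242 to 429966). The part of these shifts in the class I values was not tested.

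Each immunoproteasome subunit takes the place of a constitutive one, and the ratio of the pair was taken within each library. Ratios are of normalized counts, and their differences were tested as log2(normalized count + 1) of one subunit minus that of the other. Psmb8 over Psmb5 was 0.499 to 0.664 (median 0.565) in control – PLX choroids and 0.279 to 0.501 (median 0.327) with PLX. In Tgfbr2ΔEC choroids it was 0.438 to 0.649 (median 0.518) without and 0.342 to 0.444 (median 0.371) with PLX. The ratio fell by 0.54 on the log2 scale, with an exact two-sided permutation p of 0.000189 over 63504 relabellings of diet within genotype (adjusted p = 0.00227 over 12 tests). Psmb10 over Psmb7 was 0.283 to 0.367 (median 0.32) and 0.25 to 0.335 (median 0.283) without PLX in the same order of genotypes, and 0.16 to 0.297 (median 0.193) and 0.235 to 0.331 (median 0.241) with it. That ratio fell by 0.39 (exact permutation p = 0.00542, adjusted p = 0.0325), a call that was lost when any 1 of mice 3, 4, 9, 11, 18, 19 or 20 was left out (adjusted p 0.0503 to 0.0625). Psmb9 over Psmb6 was 0.08 to 0.351 (median 0.236) and 0.146 to 0.238 (median 0.202) without PLX and 0.0553 to 0.189 (median 0.146) and 0.137 to 0.187 (median 0.155) with it. Its difference of -0.44 did not pass (exact permutation p = 0.104, adjusted p = 0.207), and without mouse 2, the lowest – PLX choroid, it was -0.60 with an adjusted p of 0.0361.

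In retina the median of each of the 3 ratios was lower than in choroid in all 4 groups, a difference that was not tested, and in control + PLX mice the range of Psmb10 over Psmb7 (0.0728 to 0.196) overlapped that of the choroids. Psmb8 over Psmb5 was 0.0538 to 0.173 (median 0.0882) in control – PLX and 0.0461 to 0.052 (median 0.048) in control + PLX mice. In Tgfbr2ΔEC retinas it was 0.0437 to 0.0991 (median 0.0614) and 0.0222 to 0.0859 (median 0.0636). All 5 control + PLX retinas lay within 0.0461 to 0.052 and below all 5 control – PLX retinas, and the Tgfbr2ΔEC retinas overlapped. The difference over both genotypes, -0.59, did not pass after adjustment (exact permutation p = 0.0273, adjusted p = 0.109), although it did without mouse 2 (-0.69, adjusted p = 0.0385) or mouse 17 (-0.68, 0.0384). Psmb9 over Psmb6 differed by -0.57 (exact permutation p = 0.0637, adjusted p = 0.191) and Psmb10 over Psmb7 by -0.23 (p = 0.281, adjusted p = 0.428) in the same exact test. Genotype passed for 0 of the 6 ratios, the lowest p being that of Psmb10 over Psmb7 in retina (-0.38, exact permutation p = 0.0809, adjusted p = 0.194).

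**Figure D3:**
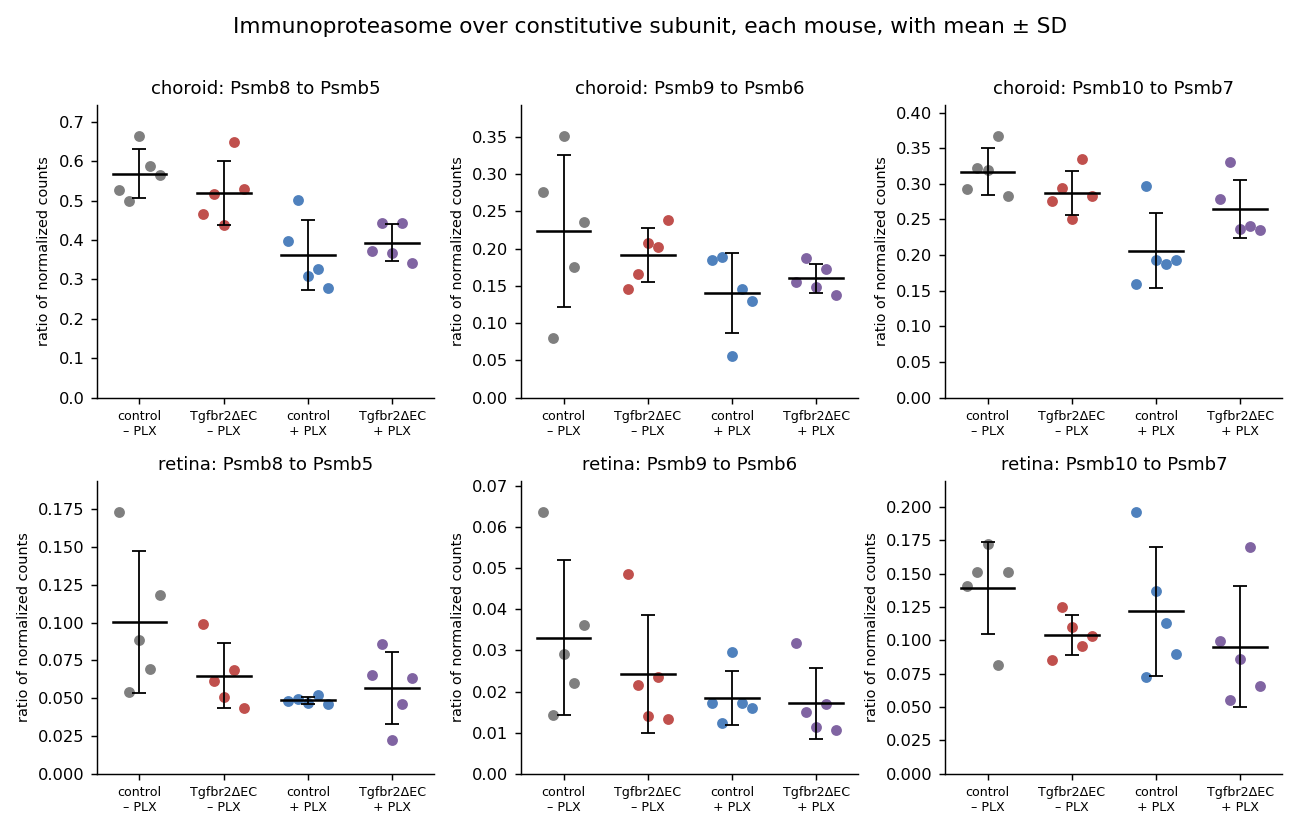
Ratio of each immunoproteasome subunit to the constitutive subunit it replaces (Psmb8 to Psmb5, Psmb9 to Psmb6, Psmb10 to Psmb7) in every choroid and retina, 1 point per mouse, with the mean and SD of each group of 5. Psmb8 to Psmb5 in the 10 – PLX choroids spans 0.438 to 0.664, and in the 10 + PLX choroids 0.279 to 0.501.

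In the retina all 9 members were below 0 with PLX over both genotypes, from -0.71 for B2m to -0.19 for Tap2 with a median of -0.40, but limma called 0 of 9, against 1.08% of 23243 genes called lower. An unadjusted p under 0.05 was found for 3, against 6.28% of all genes, namely B2m (-0.71 ± 0.20 (adjusted p = 0.125)), Tapbp (-0.40 ± 0.13 (adjusted p = 0.291)) and Psmb8 (-0.59 ± 0.26 (adjusted p = 0.694)). B2m was called without mouse 10 or without mouse 17 (-0.82 and -0.80, adjusted p 0.0217 and 0.048). In control retinas 0 of 9 were called (0.727% of all genes) and 2 had an unadjusted p under 0.05 (5.74%), and in Tgfbr2ΔEC retinas 0 of 9 (0.512%) and 1 (3.95%). The diets did not separate fully for any member in control (1.16% of all genes did) or Tgfbr2ΔEC retinas (0.916%).

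**Figure D4:**
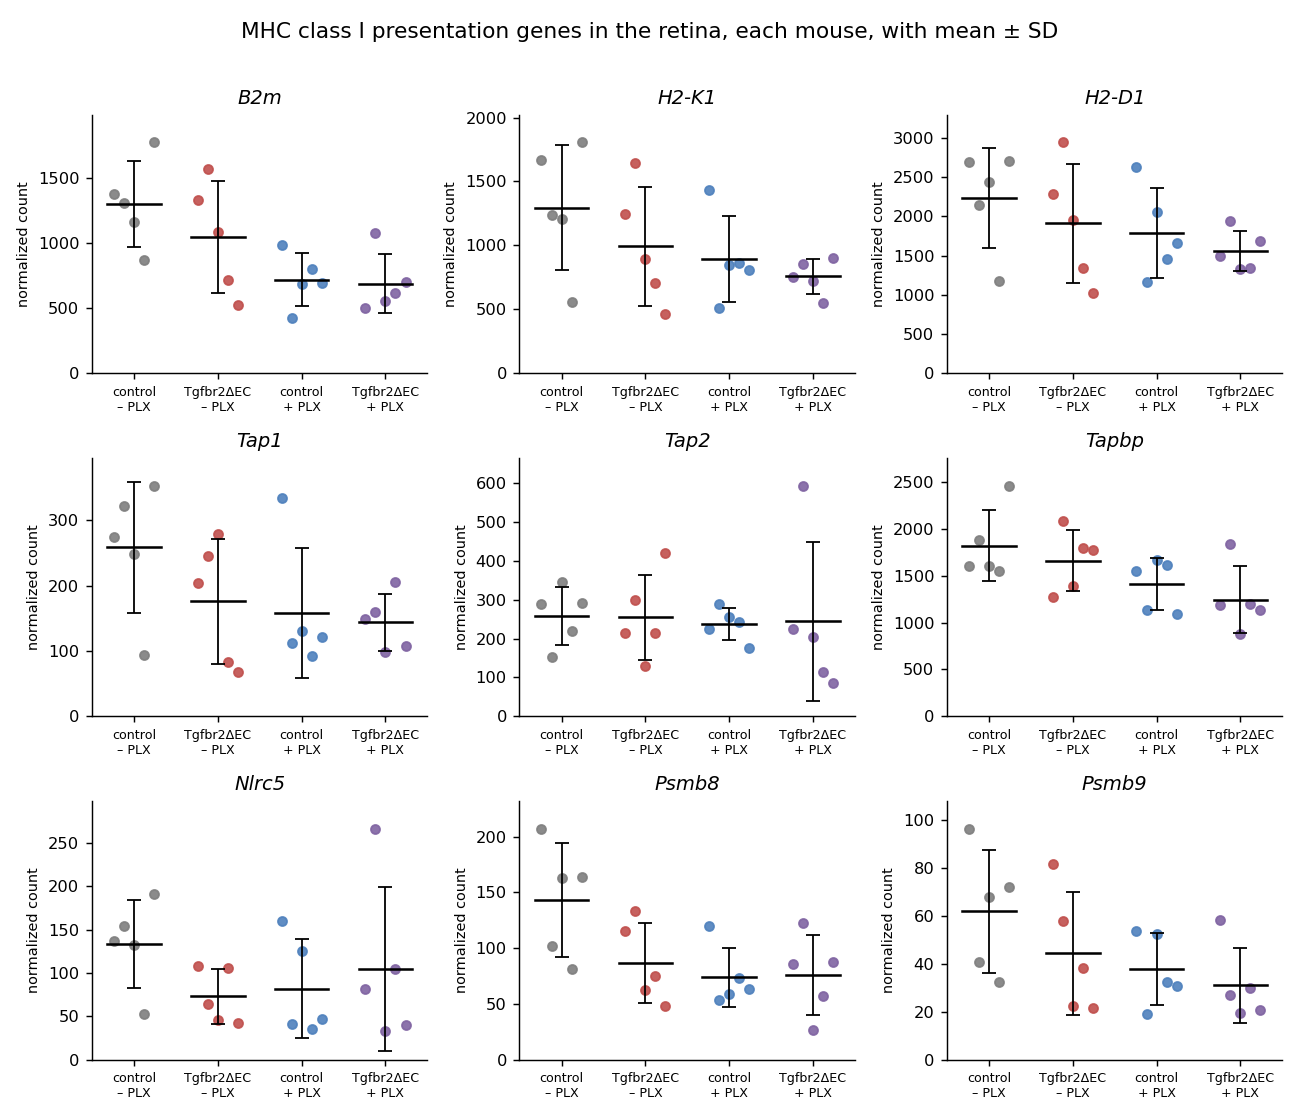
Normalized counts of the 9 genes in each of the 20 retinas, drawn as for the choroids on scales of their own. Within every group the mice spread widely, and the diets overlap for each gene.

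B2m in control retinas was at 1382, 1308, 1166, 871 and 1776 without PLX and 985, 426, 684, 799 and 696 with PLX. In Tgfbr2ΔEC retinas B2m was at 1334, 1568, 1089, 714 and 526 and 499, 1075, 553, 615 and 698. Mouse 4, the lowest without PLX, lay below mouse 11, the highest with it, and the other control mice did not overlap, and in Tgfbr2ΔEC retinas mice 9 and 10 lay within the + PLX range. H2-K1 was at 1672, 1239.8, 1204, 557 and 1807 in control – PLX and 1436, 509.6, 848, 863 and 809.8 in control + PLX retinas. H2-K1 in Tgfbr2ΔEC retinas was at 1246, 1645, 897, 709 and 461 and, with PLX, 755, 851, 725, 551 and 902. Both diets overlapped in both genotypes. H2-D1 was at 2694, 2142, 2441, 1176 and 2712 in control – PLX and 2631, 1158, 2054, 1459 and 1654 in control + PLX retinas. The Tgfbr2ΔEC retinas held 2290.0, 2946, 1954, 1341 and 1024 of H2-D1 without and 1495, 1947, 1324, 1347 and 1685 with PLX. Mice 4 and 10 were again the lowest of their groups.

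Tap1 in control retinas was at 275, 322, 249, 94.4 and 353 without PLX and at 334, 112, 130.5, 91.8 and 122 with it, where mouse 11 stood far above the other 4. Tgfbr2ΔEC retinas held 204, 245, 279, 83.6 and 68.5 without and 149, 159, 99.3, 206 and 107 with PLX. Tap2 was at 287, 152, 345, 218 and 290.3 in control – PLX and 226, 288, 256, 241 and 176 in control + PLX retinas. The Tap2 values of Tgfbr2ΔEC retinas were 214, 299, 129, 213 and 418 and, with PLX, 224, 593, 203, 115 and 85.2, of which mouse 17 was the highest. For both subunits the spread within a group was wider than the distance between diets. Tapbp was at 1599.6, 1882, 1604, 1551 and 2459 without and 1549, 1135, 1665, 1616 and 1095 with PLX in control retinas. It was at 1274, 2076, 1385, 1789.6 and 1775 without and 1188, 1836, 875, 1192 and 1133 with PLX in Tgfbr2ΔEC retinas, and its diets overlapped in both genotypes.

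Psmb8 in control retinas was at 207, 102, 162, 81.2 and 164 without PLX and 119.7, 53.4, 58.6, 73.6 and 63.7 with it. In Tgfbr2ΔEC retinas Psmb8 was at 115, 133, 62.2, 75.2 and 48 and 85.6, 122, 26.5, 57.3 and 87.5. In controls mice 2 and 4 lay below mouse 11, the highest with PLX, and the other 3 – PLX retinas lay above all 5 + PLX retinas. Psmb9 was at 96.3, 40.8, 67.7, 32.6 and 72.1 in control – PLX and 53.9, 19.2, 52.6, 32.3 and 30.9 in control + PLX retinas. Tgfbr2ΔEC – PLX retinas held 81.6, 57.8, 22.5, 38.2 and 21.4 and Tgfbr2ΔEC + PLX retinas 58.1, 27.2, 19.4, 29.8 and 20.8 counts of Psmb9, with overlap. Nlrc5 was at 137, 154, 132, 52.4 and 191 in control – PLX and 160.1, 40.9, 125, 35.2 and 47.1 in control + PLX retinas. For Tgfbr2ΔEC retinas the Nlrc5 values were 108, 64.2, 45.9, 106 and 42.6 without and 81.1, 266, 32.7, 104 and 40.4 with PLX. At these counts Nlrc5 and Psmb9 differed more between mice of a group than between diets.

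The diet effect was also compared between the tissues, and for 0 of 9 members did it differ, against 1.37% of 24317 genes, with 0 of 9 at an unadjusted p under 0.05, against 10.2%. The choroid minus retina difference of the diet effect was 0.43 ± 0.22 (adjusted p = 0.522) for B2m and -0.62 ± 0.43 (adjusted p = 0.721) for Nlrc5, the extremes of the 9. A fall called in choroid and not in retina is therefore not shown to be particular to choroid.

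Beside the members in the retina, 0 of 14 tested class I and class I-like heavy chains, 0 of 6 loading and trimming genes, 0 of 3 remaining immunoproteasome genes and 0 of 22 interferon-stimulated genes were called over both genotypes. The lowest p belonged to Fcgrt (-0.44 ± 0.16 (adjusted p = 0.413)), Erap1 (-0.44 ± 0.16 (adjusted p = 0.407)), Psme2 (-0.28 ± 0.12 (adjusted p = 0.728)) and Oas2 (-1.70 ± 0.49 (adjusted p = 0.173)). The interferon-stimulated list was below 0 in 22 of 22 genes with a median of -0.45. Among the regulators 1 of 23 was called, Irf8 (-1.07 ± 0.23 (adjusted p = 0.0205)), and MHC class II was called in 5 of 10, led by Ctss (-7.45 ± 0.47 (adjusted p = 7.4e-10)), Cd74 (-5.03 ± 0.67 (adjusted p = 5.4e-05)) and H2-Aa (-3.38 ± 0.68 (adjusted p = 0.00905)). Constitutive Psmb5 (-0.00), Psmb6 (0.01) and Psmb7 (-0.00) were near 0. The MP markers summed to 3196 to 5328 in control – PLX and 2286 to 4366 in Tgfbr2ΔEC – PLX retinas. With PLX they summed to 432 to 555 and 406 to 549.9, with Adgre1 at 0 in both groups and Mrc1 at 0 in control + PLX. Their median difference was -5.74, beside -0.40 for the class I members. T and NK cell markers summed to 22.8 or less in every retina, with Ncr1 at 0 in all retinas of 3 groups, and the part of any cell type in the class I values was not tested.

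Within a group the same mice were often the lowest or the highest for many members, most plainly in the retina. Among control – PLX retinas mouse 4 was the lowest of 5 for 8 of the 9 members and mouse 5 the highest for 6. The same retinas were the lowest and the highest of the group in the sums of MP markers (3197 and 5328), of interferon-stimulated genes (2641 and 5345) and of endothelial markers (5110.4 and 6171). Among Tgfbr2ΔEC – PLX retinas mouse 10 was the lowest for 7 members, and also lowest in MP (2286), interferon-stimulated (1921) and endothelial (4456) sums, while mouse 7 was the highest for 5. Mouse 7 was not the highest in these sums, with 4072 for MP, 3353 for interferon-stimulated genes and 4642, the second lowest of the group, for endothelial markers. With PLX, mouse 11 was the highest control retina for 7 members, with the highest MP (555) and interferon-stimulated (3544) sums but not the highest endothelial sum (5262), and mouse 17 the highest Tgfbr2ΔEC retina for 6, with 549.9 and 4639.9. The retinas of mice 7 and 11 were also the highest of their groups for the constitutive subunits, with Psmb5 at 2167 and 2493, Psmb6 at 2688 and 3117 and Psmb7 at 2440 and 2922. With PLX the lowest retinas of their groups were mouse 12 for 5 and mouse 18 for 6 members. Mouse 12 was lowest of its group in the interferon-stimulated sum (2187) but not in MP (481) or endothelial (5281) markers, and mouse 18 was lowest in MP (406) but not in interferon-stimulated (2278) or endothelial (5045) sums.

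In choroid the mouse pattern was weaker. Mouse 6 was the lowest Tgfbr2ΔEC – PLX choroid for 6 members and mouse 9 the highest for 5, and both were among the 3 choroids richest in retina RNA. Mouse 15, the other of these, was the lowest control + PLX choroid for 5 members, and the lowest of its group in MP (12884) and interferon-stimulated (14933) sums. Mouse 12 was the highest control + PLX choroid for 6 members and also had the highest MP (18480.4), interferon-stimulated (19818) and T and NK cell (355) sums of its group. Mouse 16 was the lowest Tgfbr2ΔEC + PLX choroid for 5. The retina of mouse 12, by contrast, was the lowest of its group for 5 members.

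**Figure D5:**
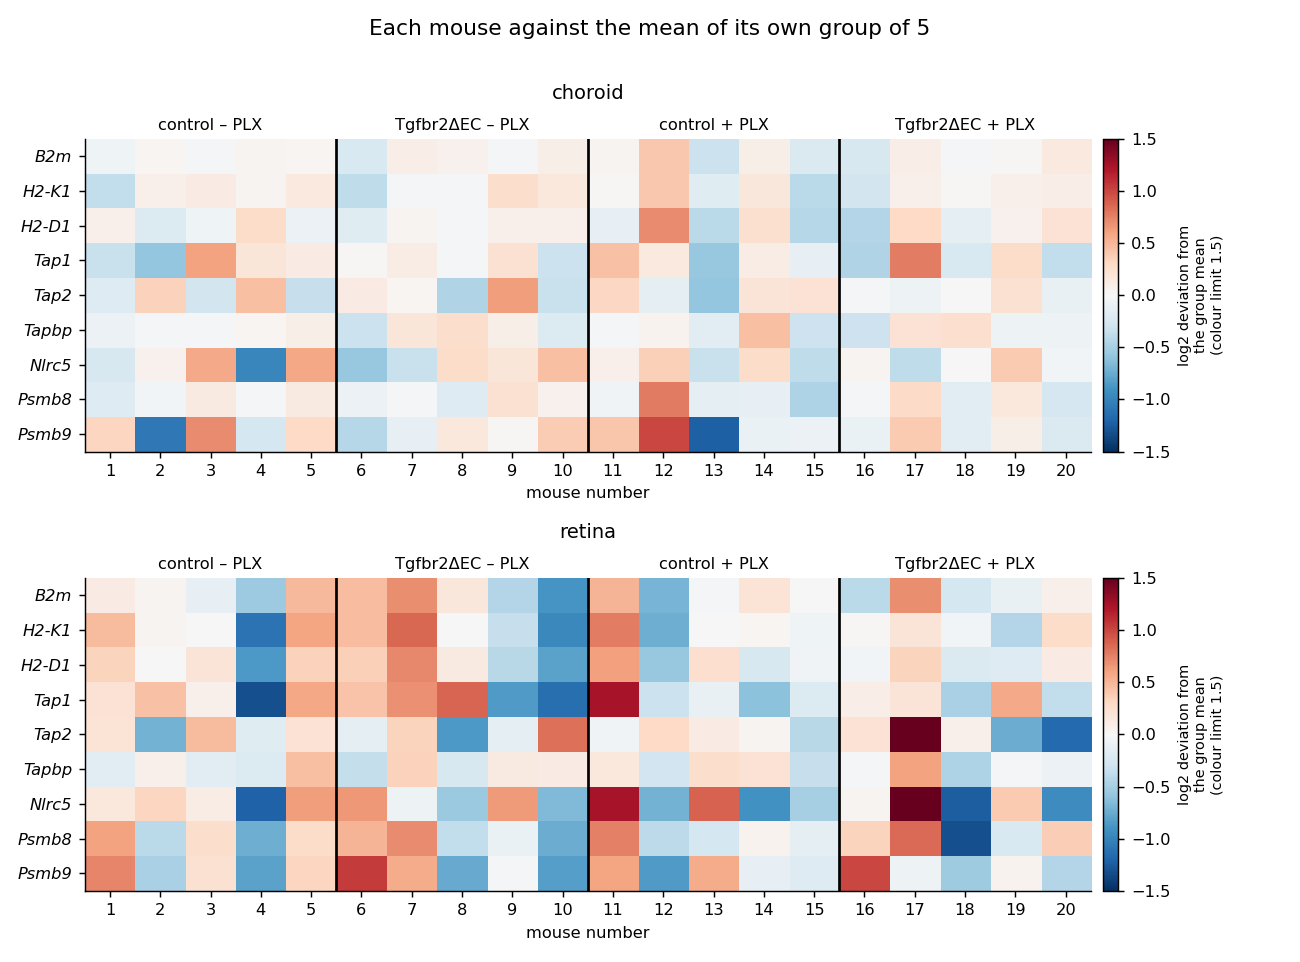
Deviation of each mouse from its group mean on the log2 scale, with the 9 genes as rows and the 20 mice as columns, in choroid and in retina (colours limited to 1.5 either way). Retina columns 4 and 10 are mostly below 0 and columns 5, 11 and 17 mostly above it.

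Endothelial loss of Tgfbr2 was not accompanied by a called difference in any of the 9 genes. Limma called 0 of 9 in choroid – PLX (against 0.00423% of all genes), where 1 had an unadjusted p under 0.05 (9.25% of all genes), namely H2-K1 (-0.33 ± 0.14 (adjusted p = 0.454)). All 5 Tgfbr2ΔEC choroids of this comparison had more photoreceptor marker RNA (45349 or more) than all 5 control choroids (25671 or less). It called 0 of 9 in choroid + PLX (0.00423%), where 2 had an unadjusted p under 0.05 (3.76%), Nlrc5 (0.74 ± 0.26 (adjusted p = 1.0)) and Tap1 (0.61 ± 0.24 (adjusted p = 1.0)), both higher in Tgfbr2ΔEC. In that comparison 9 of 9 members were above 0, with a median of 0.09, and 6 of 9 were without the 3 choroids richest in retina RNA. The interferon-stimulated genes were above 0 in 23 of 23, with a median of 0.44 and 0 called. Among Tgfbr2ΔEC + PLX choroids mouse 17 had an interferon-stimulated sum of 35252, against 17102 to 21753 in the others. It was the highest of its group for 4 members, with Tap1 at 1185, and the lowest for 1, Nlrc5. Leaving out 1 mouse took the Tap1 difference to between 0.42 and 0.72. Without the 3 choroids richest in retina RNA 0 of 9 members were called in either genotype comparison, as with them. The Tgfbr2ΔEC – PLX choroids then left (45349, 49744 and 54632) still exceeded every control – PLX choroid. That fit therefore does not remove the difference in photoreceptor marker RNA. The widest 95% interval of a member was that of Psmb9, -0.87 to 0.51 in mice on control food and -0.45 to 0.93 in mice on PLX.

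In retina the genotype comparison called 0 of 9 without PLX (against 0.0% of all genes) and 0 of 9 with PLX (0.0%), and 0 and 0 members had an unadjusted p under 0.05, against 3.26% and 2.71% of all genes. Without PLX the 9 differences were all below 0, from -0.85 for Nlrc5 to -0.07 for Tap2, with adjusted p from 0.985 to 0.99. In the same comparison 22 of 22 interferon-stimulated genes (median -0.57) and 16 of 16 MP markers (median -0.27) were below 0, and 0 of either list were called. The dependence of the diet effect on genotype passed for 0 of 9 members in retina (0.0% of all genes), with 0 at an unadjusted p under 0.05 (2.44%).

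The genes whose levels ran most like the members were sought in each tissue by Pearson correlation, over the 20 libraries, with the mean of the 9 standardized log2 values. This is a description, since libraries of a tissue share diet and composition. In choroid, among 17522 genes with a mean of at least 10, the nearest were Timd4 (0.902), a phosphatidylserine receptor of resident macrophages, Sp110 (0.898), an interferon-induced nuclear body protein, Batf3 (0.889), a transcription factor of cross-presenting dendritic cells, Mcub (0.875), a subunit of the mitochondrial calcium channel, and Lgals9 (0.872), a galectin. In retina, among 17090 genes, they were Tmsb4x (0.909), an actin-binding peptide, Bst2 (0.898) and Ifitm3 (0.885), both antiviral proteins induced by interferon, the class I heavy chain H2-Q4 (0.894) and Ctla2a (0.887), a protease inhibitor. The lists of the 2 tissues had no gene in common.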

How the data were processed

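RNA of 20 choroids and 20 retinas was sequenced (poly(A)-selected, stranded, single-read). The authors ran Salmon 1.10.1 on GRCm39 with GENCODE transcripts, tximport for import and DESeq2 1.36.0 for normalization (FastQC 0.11.5 is also named in the submitters' processing notes), and the deposited signal is a normalized count per gene, not a whole number. The sources used here do not state how strand or reads shared by related genes were counted. Both tissues had been scaled together, since each library had a median ratio of 1.008 to the gene-wise geometric mean, over 15800 genes above 0 throughout. All 40 columns were matched to a sample, and 0 were left without one. Whole reads were not recovered (43.6% to 69.1% of low values lay within 0.1 of a whole read), so no count test was run, and the depths given are approximate.

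Samples were grouped by the labels' tissue, genotype and diet, 5 mice a group, and the mouse number came from the library names. Values were analysed as log2(normalized count + 1), a scale that understates the change of low genes, by limma 3.58.1 (R 4.3.3, trended variance), keeping genes whose mean reached 1 over the libraries of the fit, and the procedure was tested on simulated data. Each tissue had 1 fit of its 4 groups with no covariate, and comparisons between tissues used the 8 groups of all 40 libraries. Benjamini-Hochberg adjustment ran over all genes tested, and errors are standard errors unless SD is written. Ratios used exact two-sided permutation tests (smallest p 3.1e-05), adjusted over 12 tests. The sex of the mice and the xCell percentage that the authors used as covariates are not in the labels and were not used, nor was shrinkage of fold changes. Positions came from GENCODE annotation of GRCm39, to which 53700 of 54307 identifiers matched, and promoters from RefSeq. Tables and figures were made with Python 3.11.15, numpy 2.4.6, pandas 2.3.3, scipy 1.17.1 and matplotlib 3.10.9.

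The 9 members and the other gene lists were chosen with earlier results of these data known. Genes of the other lists were named if they had one of the 3 lowest p of their list in a PLX comparison, belonged to a list of 3 or fewer, or were all the called genes of a list, and Irf1, Ifnar1 and Ifnar2 were named after their values were seen. Alternatives were pseudocounts of 0.5 and 5, no filter and a minimum mean of 10, other scalings, robust empirical Bayes, a covariate from sex-linked genes or from photoreceptor markers, fits of only the 10 mice compared, leaving out each mouse and, for comparisons between tissues, the mouse as a block. Leaving out the 3 choroids with more than 100000 summed photoreceptor marker counts was added after the data were seen.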

Additional observations from a re-analysis of the deposited data

Results flagged for a closer look

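Over the 9 genes and 8 groups, 72 groups of 5 values were examined for a mouse whose gap to its nearest neighbour exceeded 0.71 of the range of the group (Dixon's 95% limit for 5 values). Chance alone would give about 3.6, and 7 were found. In choroid they were H2-K1 in mouse 1, the lowest control – PLX choroid at 6061 normalized counts (gap 0.756 of the range), H2-K1 in mouse 16, the lowest Tgfbr2ΔEC + PLX choroid at 4442 (0.774), Tap2 in mouse 19, the highest Tgfbr2ΔEC + PLX choroid at 1384 (0.714), and Psmb8 in mouse 12, the highest control + PLX choroid at 824.5 (0.756). In retina they were Tap1 in mouse 11, the highest control + PLX retina at 334 (0.84), Tap2 in mouse 17, the highest Tgfbr2ΔEC + PLX retina at 593 (0.728), and Psmb9 in mouse 16, the highest of the same group at 58.1 (0.732). No 2 of the 7 shared a library.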

How the results depend on the processing

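Over both genotypes in choroid the number of members called stayed within 5 to 7 under every alternative run, and 5 to 7 when a mouse was left out. In control choroids 4 were called, 4 to 6 without a mouse, 5 with equal totals (B2m added, adjusted p = 0.0493), but 2 in the fit of only the 10 mice compared, where H2-K1 and Psmb8 both had an adjusted p of 0.0538. In Tgfbr2ΔEC choroids 0 were called, but 1 with a minimum mean of 10, 1 with equal totals, 1 with the sex score as a covariate, 2 in the fit of 10 mice, and 0 to 2 without a mouse. In retina over both genotypes 0 were called and 0 to 1 without a mouse. The ratio differences ranged, without a mouse, from -0.602 to -0.285 for Psmb9 to Psmb6 and from -0.457 to -0.346 for Psmb10 to Psmb7 in choroid, and from -0.689 to -0.444 for Psmb8 to Psmb5 in retina. B2m in choroid lost its call with no filter on low genes (adjusted p = 0.0514). The cause of these changes was not tested beyond what leaving out a mouse or testing more or fewer genes does by construction. Of 4068 member differences under alternatives 89 changed sign, and 0 of them were called. With the mouse as a block, 9, 9 and 0 members were called in the comparisons between tissues, as without it, and no call of a member changed. The 2 tissues of a mouse deviated together in 12 of 20 mice (correlation over 0.1, median 0.126, range -0.158 to 0.289), and 10 of 20 choroids correlated best with the retina of the same mouse, while the consensus correlation of the mouse block was -0.0109. Counts of Psmb9 were the lowest of the 9 members in retina, and 5 mice a group leave wide intervals there.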
